A study of Mus musculus with 26 samples.

Results

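Common myeloid progenitors (CMP) were compared with the multipotent progenitors labelled MPPFL+, the step at which blood progenitors are usually drawn as leaving for the myeloid branch. The comparison took every array titled CMP (3 arrays) and every array titled MPP_FLpos (3 arrays), 6 of the 26 Affymetrix mouse arrays of the series, and set the group means against each other for 18194 genes. The CMP and MPPFL+ arrays both hold RNA of bone marrow cells from male C57/Bl6 mice aged 2 months, with no treatment, transgene or deletion named for either. Another label of the MPPFL+ arrays spells the population MMPFL+. The GMP (granulocyte-macrophage progenitor, 3 arrays), CLP (3 arrays, another label reads ALP) and MPPFL- (5 arrays) populations of the same marrow series are used below to show where CMP differs from its neighbours. The DN1, DN2 and DN3 thymocytes enter the fit, 1 plot and a few single levels.

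The labels name no surface markers for the sorts and do not say whether replicates came from separate or pooled animals. The p-values thus measure only a spread between samples, pooled within the populations over all 26 arrays. Each array reports a mixture of many cells, in which fewer cells of a type and less RNA per cell cannot be told apart.

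As background, CMP are defined by their ability to form both the megakaryocyte and erythrocyte branch and the granulocyte and macrophage branch, while multipotent progenitors rich in the cytokine receptor Flt3 still form lymphocytes. The GATA factors Gata1 and Gata2 with Klf1 and Gfi1b drive the red cell, platelet and mast cell programmes. The C/EBP factors with Spi1 (PU.1) and Irf8 drive the granulocyte and macrophage programmes, whose earliest products are the primary granule proteins such as myeloperoxidase and elastase.

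Levels are log2 values as deposited, and a difference of 1 is a 2-fold change. The lowest value, 2.17, recurred on every array at 30.2% to 37.1% of the probe sets and serves below as the floor. If no array of the lower population exceeded the floor by more than 1 log2 unit, the change is given as "at least N-fold". Differences are CMP minus MPPFL+ and carry the standard error (SE) and adjusted p of a limma fit over all 26 arrays and all genes. The SE pools the spread within all 8 populations, so it can be smaller or larger than the CMP and MPPFL+ arrays alone would give. For Dmkn, a gene named below, the SE was 0.08 while the SD of the 3 CMP arrays was 0.27. A gene with an adjusted p under 0.05 is said to have risen or fallen in CMP.

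Some arrays stood apart, and the controls moved with the populations. The poly-A spike-in controls, added to the RNA before labelling, averaged 9.01 ± 0.38 in CMP and 4.22 ± 0.75 in MPPFL+ (SD, n = 3 each). The Gapdh 3' minus 5' signal, which grows as RNA is shortened, was 2.26 ± 0.35 in CMP and 3.07 ± 0.23 in MPPFL+. CMP replicate 1 had 30.2% of its probe sets at the floor, the least of all arrays, and its spike-in controls clustered with no other array. MPPFL+ replicate 3 carried late neutrophil genes that its partners lacked, described below. Arrays grouped on their spike-in controls formed 6 clusters, none of which holds both CMP and MPPFL+, so no difference within a cluster could be given. A second fit treated the clusters as a random block, and its counts stand beside each gene list. Because CMP and MPPFL+ differ in cluster throughout, processing and population cannot be told apart by this fit either. A gene that passes in it is therefore not shown to be free of a processing difference. A further fit, chosen after seeing the data, held the Gapdh 3' minus 5' signal as a term, and 3935 genes passed in it (896 higher in CMP, 3039 lower), against 4378 without the term. Of the genes named by rule, 14 lost their call in it and 1 gained one. The part of other technical differences in the results was not tested.

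Of the genes usually used to tell these populations apart, Flt3, Gata1, Fcgr3 and Kit passed, while Mpo, Cd34, Il7r, Fcgr2b and Il2ra did not. Flt3, the cytokine receptor that marks lymphoid-capable progenitors, was at 10.77, 10.69 and 10.83 in CMP, against 13.43, 13.53 and 12.99 in MPPFL+, 5.85-fold lower with no overlap (difference -2.55, SE 0.40, adjusted p = 0.000108). Gata1, which turns on red cell and megakaryocyte genes, was at 10.89, 10.94 and 11.11 in CMP, against 4.10, 3.72 and 4.39 in MPPFL+. The lowest CMP array thus stood more than 6 log2 units above the highest MPPFL+ array (difference 6.91, SE 0.40, adjusted p = 2.68e-10). Fcgr3, an Fc receptor used to tell CMP and GMP apart, was at 8.55, 8.38 and 8.58 in CMP, against 3.48, 3.01 and 3.51 in MPPFL+ (difference 5.17, SE 0.23, adjusted p = 5.55e-12), and at 12.23 ± 0.11 in GMP (SD, n = 3). Kit, the stem cell factor receptor, fell to 11.59, 12.91 and 12.46 in CMP, against 13.60, 13.75 and 13.09 in MPPFL+ (difference -1.16, SE 0.24, adjusted p = 0.00149).

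Mpo, the myeloperoxidase of primary granules, was high in both populations. It was at 15.43, 15.41 and 15.59 in CMP, against 14.06, 14.21 and 14.42 in MPPFL+. Every CMP array lay above every MPPFL+ array, and the difference of 1.24 did not pass in the fit over all arrays (SE 0.61, adjusted p = 0.151). That SE also takes in the spread within the other populations. The SD of Mpo was 0.10 in CMP and 0.18 in MPPFL+, while the DN3 arrays were at 2.52, 2.59 and 6.36. Mpo passed when the 6 arrays were fitted alone (adjusted p = 0.0151). In that fit 75 of the genes named by rule lost their call, and Mpo was the 1 that gained one. Cd34 did not pass (difference -0.68, adjusted p = 0.0632), though it did without CMP replicate 2 (adjusted p = 0.0233) or replicate 3 (0.0279). Il7r, which carries the interleukin 7 signal in lymphoid progenitors, was at 2.86, 3.89 and 2.98 in CMP, against 3.35, 3.52 and 7.55 in MPPFL+, where the high value is that of replicate 3 (adjusted p = 0.133; 0.0324 without MPPFL+ replicate 1 and 0.044 without replicate 2). Fcgr2b, the inhibitory Fc receptor, overlapped between the groups (difference 0.13, adjusted p = 1), and Il2ra, which appears on thymocytes, lay at or close to the floor on all 6 arrays.

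**Figure D1:**
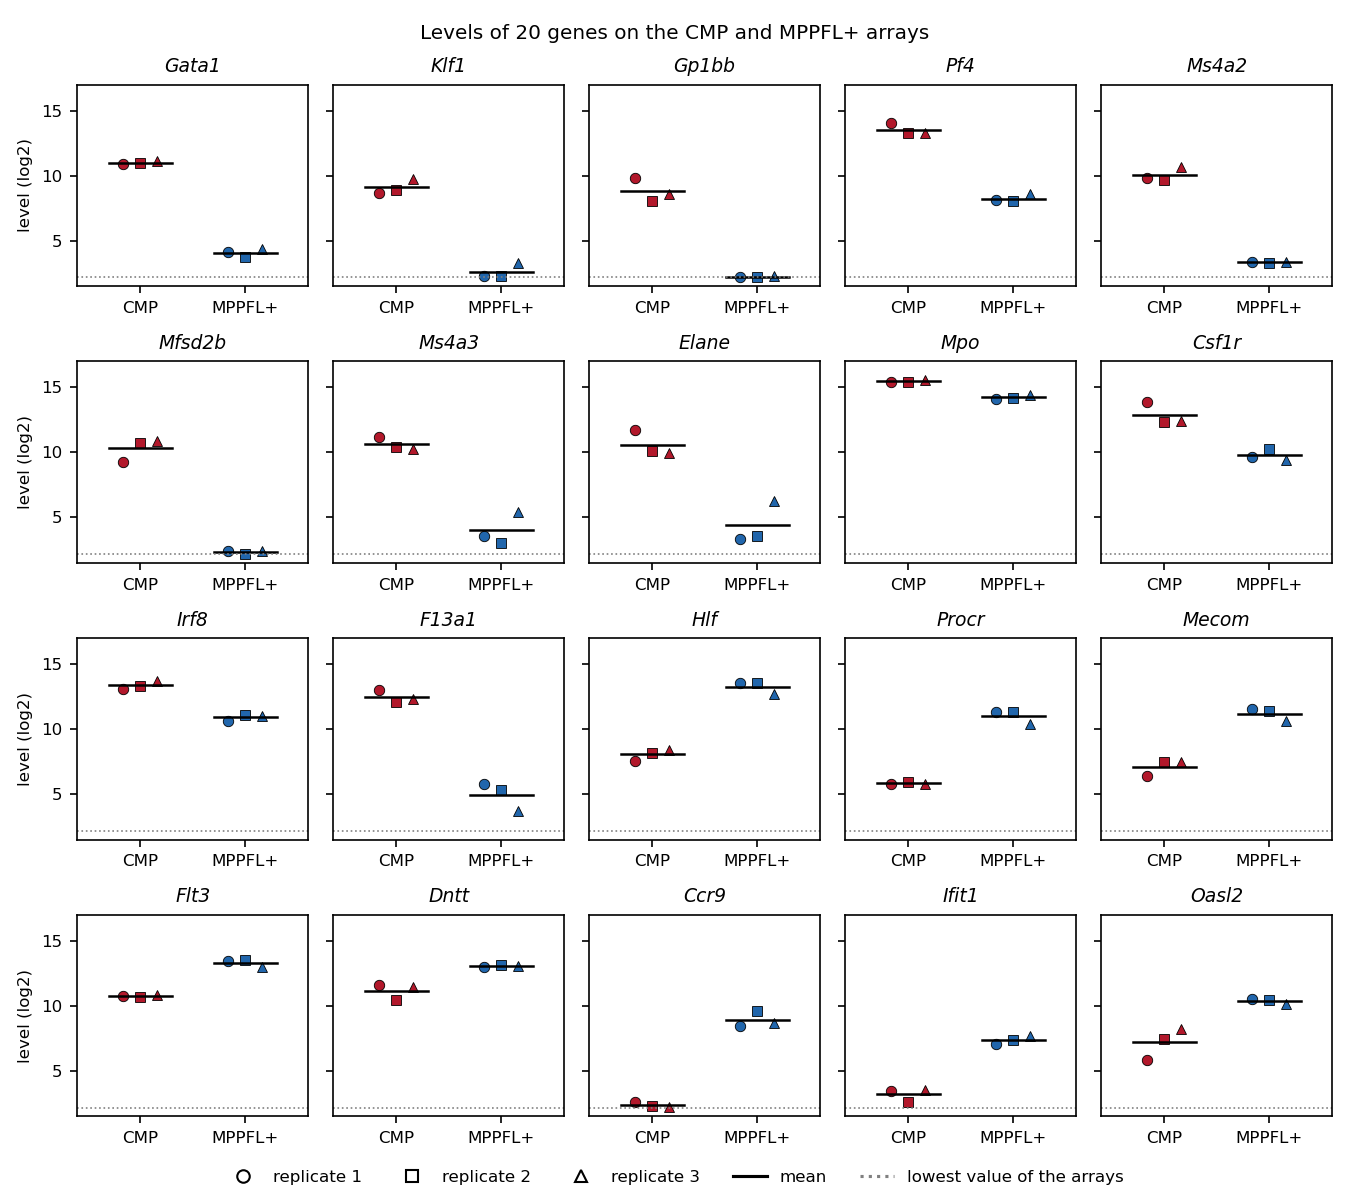
Log2 level (y axis) of 20 genes on the 3 CMP arrays (red, left) and the 3 MPPFL+ arrays (blue, right), with 1 symbol per replicate, a bar at the mean and a dotted line at the lowest value of the arrays. Gata1 sits between 10.89 and 11.11 in CMP and between 3.72 and 4.39 in MPPFL+, while the groups lie close for Mpo.

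Across all genes, 981 were higher in CMP (5.39% of those tested) and 3397 were lower (18.7%). Together these are 24.1% of genes. Of these, 184 rose and 575 fell by 4-fold or more. The 9097 genes whose mean over all arrays reached the median differed by -0.35 at their median as deposited and by -0.12 after quantile normalization. Single differences are to be read against that shift of 0.22, and the share of passing genes that were higher was 22.4% as deposited and 36.4% after quantile normalization. Without CMP replicate 2, 1887 genes were higher, and without CMP replicate 3, 1754. With the spike-in clusters as a random block, 138 genes were higher and 390 lower. Of the genes that passed, 572 that rose and 2225 that fell still passed whichever of the 6 arrays was left out. The arrays of the populations did not overlap, with CMP higher, for 6.12% of all genes, and with CMP lower for 20.9%.

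The MPPFL+ arrays lay near the floor for 211 of the genes that rose, and the CMP arrays for 262 of those that fell. Of all genes tested, 7080 lay near the floor on all 6 arrays. When only the 9097 genes at or above the median mean were fitted, 819 were higher in CMP and 3215 lower. The shares over all genes that stand beside the lists include the genes near the floor. Shares of a list that fell are therefore also to be read against those 3215 of 9097 genes. Among all 8 populations, 311 of the genes that rose had their highest mean in CMP, and 977 of those that fell had their lowest mean there. Genes with several probe sets were not always uniform, since 224 of 1091 genes with more than 1 passing probe set had them in both directions. Such genes are marked where they are named.

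**Figure D2:**
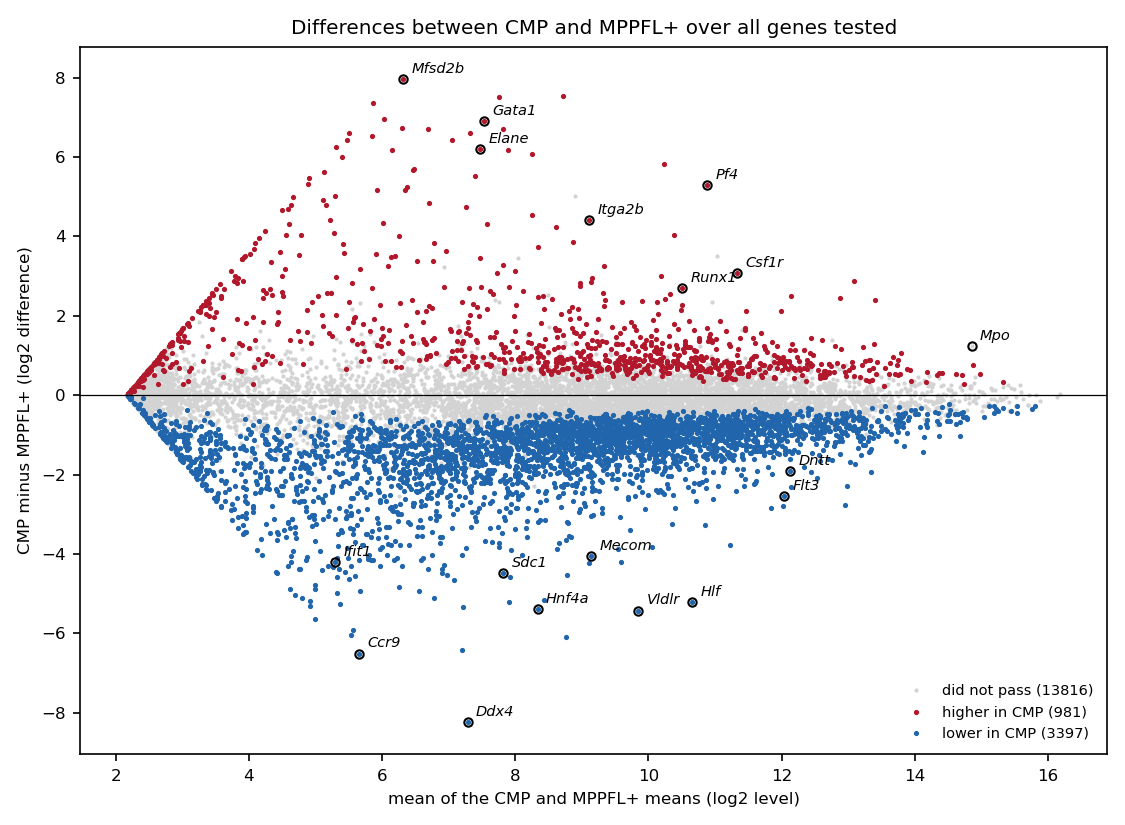
Difference CMP minus MPPFL+ on the log2 scale (y axis) against the mean of both group means on the log2 scale (x axis) for every gene tested, with genes higher in CMP in red, lower in blue and those that did not pass in grey. The 981 red points reach 7.96 for Mfsd2b, and the 3397 blue points reach -8.23 for Ddx4.

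The transcription factors of the red cell and megakaryocyte branch moved in both directions. Of 16 measured, 4 rose (25.0%, against 5.39% of all genes), 6 fell (37.5%, against 18.7%) and 6 did not pass. The list median was -0.43, against 0 over all genes tested and -0.35 over the genes whose mean reached the median. No member lay near the floor on all 6 arrays. The risers were Gata1, Klf1, Gata2 and Gfi1b, which act on red cell, megakaryocyte and mast cell genes. Klf1, the factor that turns on adult globin and red cell membrane genes, was at 8.67, 8.92 and 9.74 in CMP, against 2.27, 2.27 and 3.24 in MPPFL+. It was thus close to the floor on the MPPFL+ arrays and well above it on every CMP array (difference 6.52, SE 0.35, adjusted p = 7.2e-11). Gata2, which stem cells and mast cells also use, was at 11.21, 11.20 and 11.09 in CMP, against 9.60, 9.49 and 8.26 in MPPFL+ (difference 2.05, SE 0.35, adjusted p = 0.000239). Gfi1b, a repressor needed for red cells and platelets, differed by only 0.96 (SE 0.33, adjusted p = 0.0408). Its call was lost with the Gapdh term (0.0983), without CMP replicate 2 (0.0576) or 3 (0.123) and without MPPFL+ replicate 1 (0.0868), 2 (0.053) or 3 (0.13).

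The factors that fell include several that stem cells also use. Lmo2, a bridge of the Tal1 and GATA complex, was at 12.60, 13.45 and 13.84 in CMP, against 14.22, 14.23 and 14.19 in MPPFL+ (difference -0.92, adjusted p = 0.00327). Lyl1, a relative of Tal1, differed by -1.08 (adjusted p = 0.0109; 0.064 without CMP replicate 2), and the corepressor Cbfa2t3 by -0.70 (adjusted p = 0.00716; 0.0656 after quantile normalization). Bcl11a, the repressor of fetal globin, differed by -1.18 (adjusted p = 0.000629), and by -0.49 with its probe sets averaged (0.0751). Fli1, an ETS factor of megakaryocytes, differed by -1.60 (adjusted p = 0.000155), with its other probe set in the opposite direction and no call when they were averaged (0.424). Klf3, which binds many of the sites of Klf1, fell the most, to 7.80, 8.97 and 8.77 in CMP, against 11.60, 11.45 and 11.07 in MPPFL+ (difference -2.86, SE 0.28, adjusted p = 4.34e-07), with 1 of its 6 other probe sets in the opposite direction.

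The other 6 factors did not pass. Tal1, the basic helix-loop-helix partner of the GATA complex, was at 10.44, 10.34 and 10.61 in CMP, against 10.82, 10.96 and 10.64 in MPPFL+ (difference -0.34, adjusted p = 0.196). Nfe2, a factor of platelet release, differed by -0.52 (adjusted p = 0.0831; 0.0331 without CMP replicate 3), and Zbtb7a by -0.58 (adjusted p = 0.155; 0.0203 without CMP replicate 1). Zfpm1 (FOG1), the cofactor of Gata1, differed by 0.52 (adjusted p = 0.276), Ldb1 by 0.12 (adjusted p = 1) and Myb by 0.08 (adjusted p = 0.714). With the spike-in clusters as a random block, 2 factors rose and 1 fell, and Gata1, Klf1 and Klf3 still passed (Gata1 adjusted p = 6.41e-05).

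Promoters of genes from this branch show the letters that GATA factors bind, and those of 4 strong risers that hold them are printed to show where they lie. The sequences are from RefSeq on build GRCm38.p6, 5' to 3' on the strand of the gene, from 250 bases before to 50 after the gene start. Capitals mark AGATAA or TGATAA on either strand, so the complements TTATCT and TTATCA are capitals too. The regions are chr19:11623670-11623969 (minus strand) for Ms4a2, the beta chain of the mast cell IgE receptor, chr16:30310732-30311031 (minus strand) for Gp5, a platelet receptor subunit, chr8:84901732-84902031 (plus strand) for Klf1, and chr5:90772185-90772484 (plus strand) for Pf4, the chemokine of platelet granules.
Ms4a2: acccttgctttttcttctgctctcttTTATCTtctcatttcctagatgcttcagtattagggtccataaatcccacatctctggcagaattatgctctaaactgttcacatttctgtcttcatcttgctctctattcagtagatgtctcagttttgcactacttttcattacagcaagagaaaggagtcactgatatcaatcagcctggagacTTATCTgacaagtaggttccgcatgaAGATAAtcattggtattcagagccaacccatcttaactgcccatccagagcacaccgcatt
Gp5: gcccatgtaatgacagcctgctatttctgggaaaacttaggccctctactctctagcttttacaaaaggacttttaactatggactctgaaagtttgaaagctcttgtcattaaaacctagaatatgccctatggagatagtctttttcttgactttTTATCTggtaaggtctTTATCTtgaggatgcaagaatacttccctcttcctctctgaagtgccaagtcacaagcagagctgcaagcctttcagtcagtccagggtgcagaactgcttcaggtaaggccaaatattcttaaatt
Klf1: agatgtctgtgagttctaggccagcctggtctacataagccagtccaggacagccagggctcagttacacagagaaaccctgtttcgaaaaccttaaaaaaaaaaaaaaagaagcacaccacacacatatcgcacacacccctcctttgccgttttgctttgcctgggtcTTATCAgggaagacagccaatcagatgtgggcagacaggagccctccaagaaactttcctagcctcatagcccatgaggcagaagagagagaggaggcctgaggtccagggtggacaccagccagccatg
Pf4: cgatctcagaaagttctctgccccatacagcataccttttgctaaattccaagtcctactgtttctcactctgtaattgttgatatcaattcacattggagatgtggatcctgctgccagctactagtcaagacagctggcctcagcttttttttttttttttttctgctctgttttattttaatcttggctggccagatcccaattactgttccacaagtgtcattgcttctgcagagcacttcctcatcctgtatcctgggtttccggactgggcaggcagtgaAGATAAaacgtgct

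Ms4a2 holds 3 such matches, Gp5 holds 2, and Klf1 and Pf4 hold 1 each. Of the 37 red cell, megakaryocyte and mast cell genes that rose, 31 had a promoter in the table, and 14 of those (45.2%) held a match, against 15% of the 14453 tested genes with a promoter and 18.6% of all 32851 promoters in the table. Besides the 4 printed they are Alas2, Clec1b, Cpa3, Epor, Ermap, F2rl2, Gfi1b, Icam4, Kel and Rhd. The genes were picked on their change, so the share is a description, and a match is not a bound site.

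Of 32 measured red cell and heme genes, 12 rose (37.5%, against 5.39% of all genes) and 3 fell (9.38%, against 18.7%). The other 17 did not pass, and the list median was 0.36. Members of the red cell membrane were on both sides of the threshold, since Sptb, Epb42, Ank1, Rhag, Add2 and Gypc did not pass. Mfsd2b, which exports sphingosine-1-phosphate from red cells and platelets, was at 9.26, 10.75 and 10.88 in CMP, against 2.39, 2.22 and 2.39 in MPPFL+. It rose at least 249.7-fold (SE 0.31 log2, adjusted p = 1.44e-12), the largest rise among the genes named. Ermap, a membrane protein of erythroblasts, rose at least 63.8-fold (7.98, 8.56 and 8.65 in CMP, against 2.17, 2.17 and 2.86 in MPPFL+; adjusted p = 2.05e-13). Aqp1, the red cell water channel, rose at least 49.2-fold, and Kel, the Kell blood group protein, at least 5.91-fold, both from the floor in MPPFL+.

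Car1, the carbonic anhydrase of early red cells, was at 10.83, 11.57 and 12.16 in CMP, against 2.31, 2.31 and 7.37 in MPPFL+. The high MPPFL+ value is that of replicate 3, and the CMP arrays still lay above it (difference 7.53, SE 1.18, adjusted p = 9.66e-05). Icam4, an adhesion protein of erythroblasts, rose by 3.48 (SE 0.25, adjusted p = 8.02e-09). Epor, the erythropoietin receptor, was low throughout, at 2.35, 3.78 and 5.13 in CMP, against 2.18 on every MPPFL+ array (adjusted p = 0.00725), so that CMP replicate 1 was at the level of MPPFL+. Alas2, the red cell form of the first heme enzyme, was at 2.17, 4.51 and 3.57 in CMP, against 2.17 on each MPPFL+ array. It rose at least 2.37-fold (adjusted p = 0.0245), and missed when any array but CMP replicate 1 was left out (0.055 to 0.146). Hba-a1, an alpha globin gene, was at the floor on all 6 arrays.

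In the other direction, Car2, a carbonic anhydrase that stem cells express too, was at 11.46, 12.28 and 12.95 in CMP, against 14.20, 14.13 and 13.58 in MPPFL+ (difference -1.74, adjusted p = 0.000338). The heme enzyme Ppox and the peroxidase Prdx2 differed by -1.18 and -0.56 (adjusted p = 0.0221 and 0.0388). Both calls were fragile, and without CMP replicate 1 the adjusted p was 0.146 for Ppox and 0.246 for Prdx2. Without MPPFL+ replicate 1 it was 0.0595 for Ppox and 0.111 for Prdx2, and Ppox also missed without MPPFL+ replicate 3 (0.0641) and Prdx2 without CMP replicate 2 (0.0859) or MPPFL+ replicate 2 (0.175). After quantile normalization the adjusted p was 0.0617 for Ppox and 0.0917 for Prdx2, with probe sets averaged 0.0978 and 1, and with the Gapdh term 0.0524 and 0.0905. In this list 1 member fell without CMP replicate 1, without MPPFL+ replicate 1, after quantile normalization or with the Gapdh term. The heme enzymes Urod and Alad differed by -0.03 and -0.04 (adjusted p = 1 for both). With the spike-in clusters as a block, 5 members rose and 0 fell, and among those named Mfsd2b, Ermap, Aqp1, Icam4 and Kel were the 5.

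Platelet genes formed the list with the largest share of risers. Of 24 measured platelet and megakaryocyte genes, 16 rose (66.7%, against 5.39% of all genes) and 3 fell (12.5%, against 18.7%). The other 5 did not pass, and the list median was 1.69. Vwf, the factor that tethers platelets to vessel walls, and subunits of its receptor were among the risers. Vwf was at 9.86, 10.23 and 10.39 in CMP, against 5.46, 4.47 and 3.96 in MPPFL+ (difference 5.53, SE 0.50, adjusted p = 1.66e-07). Gp1bb was at 9.80, 8.01 and 8.61 in CMP, against 2.17, 2.17 and 2.28 in MPPFL+, a rise of at least 96.9-fold (adjusted p = 2.08e-07). Gp5 was at 7.29, 7.45 and 8.18 in CMP, against 2.18 on each MPPFL+ array, a rise of at least 44.2-fold (adjusted p = 1.31e-11).

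The fibrinogen receptor followed the same direction. Its beta chain Itgb3 was at 9.48, 9.21 and 9.24 in CMP, against 3.55, 4.66 and 2.66 in MPPFL+ (difference 5.69, SE 0.41, adjusted p = 8.55e-09). The alpha chain Itga2b (CD41) was at 10.93, 11.31 and 11.69 in CMP, against 6.81, 7.31 and 6.57 in MPPFL+ (difference 4.42, adjusted p = 2.24e-07). Both chains were already above the floor in MPPFL+. Pf4, the granule chemokine, reached 14.02, 13.28 and 13.31 in CMP, against 8.12, 8.03 and 8.55 in MPPFL+ (difference 5.30, SE 0.36, adjusted p = 2.53e-09). Cavin2, which shapes membrane invaginations, was at 8.65, 10.16 and 9.83 in CMP, against the floor on every MPPFL+ array, and rose at least 165.9-fold (adjusted p = 5.81e-11).

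Treml1, a receptor of platelet granules, was at 4.57, 5.75 and 6.75 in CMP, against 2.18, 2.18 and 2.18 in MPPFL+. Clec1b, the platelet receptor CLEC-2, was at 3.66, 3.88 and 5.44 in CMP and near the floor in MPPFL+, and both rose. Thbs1 passed with a difference of only 0.06 at the floor, which is no measurable level, and missed when CMP replicate 3 or any MPPFL+ array was left out (0.0735 to 0.0816). Against the direction of the list, 3 members fell. Mmrn1, a protein of platelet granules and of stem cells, was at 7.68, 8.70 and 8.13 in CMP, against 10.39, 10.15 and 9.79 in MPPFL+ (difference -1.94, adjusted p = 0.00176). Slc35d3, a sugar transporter of platelet dense granules, differed by -1.91 (adjusted p = 0.00143), and Selp (P-selectin) by -1.66 (adjusted p = 0.000299), though 1 of the 2 other probe sets of Selp ran the opposite way and they averaged a difference of 0.23. Without MPPFL+ replicate 3, 13 members rose, and with the spike-in block 9 rose and 0 fell.

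Mast cell and basophil genes were also among the largest risers. Of 18 measured members, 5 rose (27.8%, against 5.39% of all genes), 0 fell (against 18.7%) and 13 did not pass. Of the 18, 9 were near the floor on all 6 arrays (list median 0.03). Ms4a2 was at 9.82, 9.64 and 10.66 in CMP, against 3.34, 3.32 and 3.34 in MPPFL+ (difference 6.71, SE 0.31, adjusted p = 9.48e-12). Hdc, the enzyme that makes histamine, was at 10.61, 10.18 and 10.01 in CMP, against 3.79, 3.79 and 3.91 in MPPFL+ (difference 6.44, adjusted p = 1.44e-07). Cpa3, the mast cell carboxypeptidase, was at 10.85, 10.81 and 12.23 in CMP, against 5.72, 4.95 and 4.96 in MPPFL+ (difference 6.09, adjusted p = 1.45e-08). In all 3 the CMP arrays stood at least 5 log2 units above the MPPFL+ arrays.

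Gzmb, a granzyme, rose at least 30.1-fold from near the floor (adjusted p = 2.47e-06), and Mcpt8, the basophil protease, rose by 2.73 (SE 0.33, adjusted p = 5.61e-06). The alpha chain of the IgE receptor, Fcer1a, lay at the floor on both sides, and the eosinophil granule genes Prg2 and Epx, at 13.14 and 10.66 in GMP, did not pass here (Prg2 at 2.17, 2.17 and 4.40 in CMP, against 3.71, 2.17 and 2.17 in MPPFL+). In the blocked fit, 4 members still rose.

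**Figure D3:**
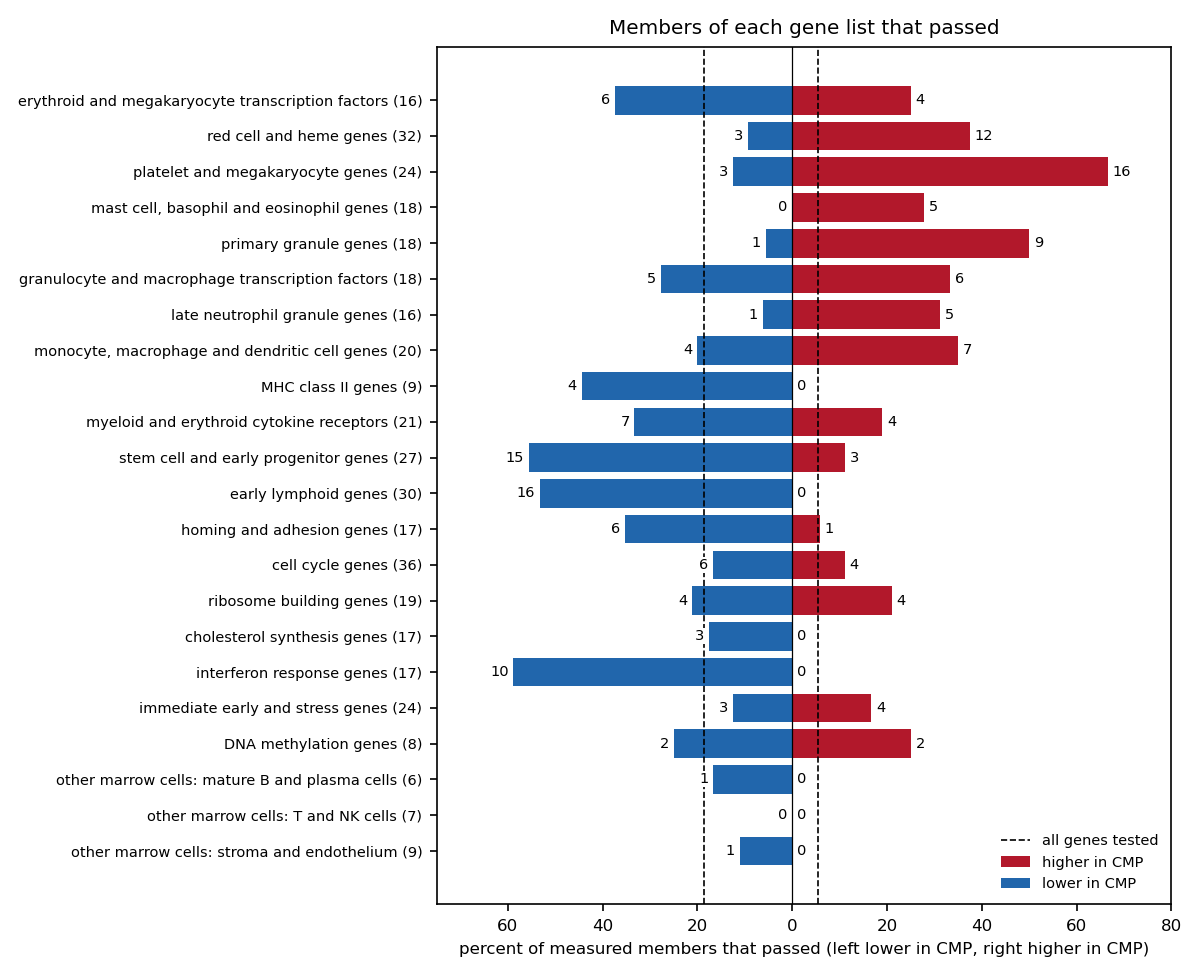
Percent of the measured members of each gene list (x axis) that were higher in CMP (red, to the right) or lower in CMP (blue, to the left), with the counts at the bar ends, the measured members in brackets and dashed lines at the percent over all genes tested. The platelet list reaches 66.7% on the side higher in CMP, and the interferon, stem cell and lymphoid lists lie between 53.3% and 58.8% on the side lower in CMP.

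Primary granule genes rose in part, from very different starting levels. Of 18 measured, 9 rose (50%, against 5.39% of all genes), 1 fell (5.56%, against 18.7%) and 8 did not pass. The list median was 0.85. Elane, neutrophil elastase, was at 11.74, 10.06 and 9.93 in CMP, against 3.33, 3.53 and 6.26 in MPPFL+ (difference 6.20, SE 0.77, adjusted p = 6.9e-06). Ms4a3, a membrane protein whose promoter is used to trace granulocyte-macrophage progenitors, was at 11.19, 10.41 and 10.23 in CMP, against 3.56, 3.06 and 5.42 in MPPFL+ (difference 6.60, SE 0.54, adjusted p = 4.27e-08). For both genes MPPFL+ replicate 3 was the highest of its group and still lay below every CMP array. Hp, haptoglobin, was at 9.75, 9.69 and 9.53 in CMP, against 2.52, 2.52 and 3.74 in MPPFL+ (difference 6.73, SE 0.35, adjusted p = 5.61e-11).

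Igsf6, an immunoglobulin-family membrane protein, rose at least 76.8-fold from the floor, with CMP arrays close to each other at 8.45, 8.41 and 8.45 (adjusted p = 5.02e-08). Other granule genes were strongly expressed on both sides. Ctsg, cathepsin G, was at 14.61, 14.11 and 14.82 in CMP, against 11.36, 11.56 and 12.02 in MPPFL+ (difference 2.87, adjusted p = 1.81e-06), and Prtn3, proteinase 3, at 14.17, 13.44 and 13.85 in CMP, against 12.30, 12.60 and 12.94 in MPPFL+ (difference 1.21, adjusted p = 0.0022). Dmkn, a secreted protein best known from skin, rose at least 6.34-fold (adjusted p = 3.84e-14). The exception was Serpinb1a, an inhibitor of granule proteases, which fell by 0.86 on the log2 scale (adjusted p = 0.00259). Under the random block of spike-in clusters, 6 rose and 0 fell, and with the Gapdh term 3 fell.

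The promoter of Ms4a3 is printed because this gene had the largest rise of those that hold the core motif of C/EBP factors, TTGCNNAA on either strand (capitals). It lies at chr19:11640802-11641101 (minus strand, GRCm38.p6, RefSeq).
Ms4a3: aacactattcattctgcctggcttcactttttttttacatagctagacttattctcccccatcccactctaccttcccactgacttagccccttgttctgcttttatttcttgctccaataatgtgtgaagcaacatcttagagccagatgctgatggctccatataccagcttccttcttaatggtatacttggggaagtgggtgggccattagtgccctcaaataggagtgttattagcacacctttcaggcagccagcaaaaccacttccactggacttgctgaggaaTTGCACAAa

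Of the 9 granule genes that rose, 8 had a promoter in the table, and 3 of them (37.5%) held this motif, namely Cst7, Dmkn and Ms4a3, against 10.8% of tested genes with a promoter. Like the GATA shares, this is a description of genes picked on their change.

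The granulocyte and macrophage transcription factors moved in both directions. Of 18 measured, 6 rose (33.3%, against 5.39% of all genes), 5 fell (27.8%, against 18.7%) and 7 did not pass (median 0.04). Cebpa, which starts the granulocyte programme, was at 9.08, 8.32 and 8.60 in CMP, against 6.23, 6.90 and 6.34 in MPPFL+ (difference 2.17, SE 0.30, adjusted p = 2.17e-05). Irf8, which steers cells to monocytes and dendritic cells, was at 13.10, 13.35 and 13.71 in CMP, against 10.62, 11.07 and 10.99 in MPPFL+ (difference 2.49, SE 0.37, adjusted p = 5.22e-05). Runx1, needed for the first blood stem cells and for platelets, was at 11.72, 11.96 and 11.88 in CMP, against 9.17, 9.03 and 9.30 in MPPFL+ (difference 2.69, SE 0.24, adjusted p = 1.44e-07). For each of the 3 genes, every CMP array lay more than 1 log2 unit above every MPPFL+ array.

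Zeb2, a zinc finger factor of monocytes, and Cebpd, a C/EBP factor of later granulocytes, rose by 1.86 and 1.69 (adjusted p = 0.0045 and 0.00685), and Bach1 rose by 0.92 (adjusted p = 0.0134), though its difference was 0.53 without CMP replicate 1 (adjusted p = 0.0887). Klf4, a monocyte factor, had a larger difference, 3.46, that did not pass (SE 1.26, adjusted p = 0.0536). It passed without MPPFL+ replicate 1 (0.0478), after quantile normalization (0.0371) and with its probe sets averaged (0.0303). Its levels were 9.94, 10.08 and 9.29 in CMP, against 7.63, 6.17 and 5.14 in MPPFL+. Spi1 (PU.1), the factor common to granulocytes and macrophages, was at 10.08, 8.11 and 8.75 in CMP, against 8.85, 9.17 and 8.69 in MPPFL+, and the groups overlapped (difference 0.08, adjusted p = 1).

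Gfi1, a repressor that favours granulocytes over monocytes, fell to 9.50, 10.01 and 9.43 in CMP, against 12.16, 12.01 and 11.45 in MPPFL+ (difference -2.23, SE 0.28, adjusted p = 8.15e-06). Cebpb, the C/EBP factor of emergency granulocyte formation, fell to 8.74, 7.12 and 6.81 in CMP, against 9.60, 9.52 and 8.75 in MPPFL+ (difference -1.73, adjusted p = 0.00813). Per3, Id2 and Etv6 differed by -1.62, -0.93 and -0.85 (adjusted p = 0.0137, 0.0376 and 0.0131). Per3 missed without CMP replicate 1 (0.0592) or MPPFL+ replicate 3 (0.0621), Etv6 without CMP replicate 1 (0.058), and Id2 without CMP replicate 3 (0.174) or MPPFL+ replicate 1 (0.189) or 2 (0.0511). With probe sets averaged, neither Etv6 (0.157) nor Id2 (0.358) passed, and Id2 also missed after quantile normalization (0.133) and with the Gapdh term (0.0769). Egr1 and Nfil3 overlapped between the groups, and Egr2, Rara and Trib1 lay near the floor. Without CMP replicate 1, 3 factors fell. When the spike-in clusters were blocked, 2 rose (Irf8 and Runx1) and 0 fell.

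The calls on late neutrophil genes depended on single arrays. Of 16 measured, 5 rose (31.2%, against 5.39% of all genes), 1 fell (6.25%, against 18.7%) and 10 did not pass (median 0.75). The mean level of the list was 6.15, 5.43 and 5.49 on the CMP arrays, against 3.63, 3.69 and 5.96 on the MPPFL+ arrays, so that MPPFL+ replicate 3 lay within the CMP range. Ngp, a granule protein of maturing neutrophils, was at 9.82, 8.20 and 8.31 in CMP, against 3.13, 3.42 and 8.91 in MPPFL+ (difference 3.62, SE 0.96, adjusted p = 0.00877). Camp, the cathelicidin precursor, was at 9.14, 7.08 and 6.89 in CMP, against 2.60, 2.41 and 8.37 in MPPFL+ (difference 3.24, adjusted p = 0.0202). In both genes that array overlapped CMP while its partners were 3 log2 units or more below.

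S100a8, a subunit of calprotectin, was at 12.36, 9.51 and 10.001 in CMP, against 5.84, 5.89 and 11.29 in MPPFL+ (difference 2.95, adjusted p = 0.0389). Its partner S100a9 and the granule genes Chil3 and Lcn2 had the same pattern and did not pass (adjusted p = 0.103, 0.156 and 0.611). Ltf (lactoferrin) was at 5.57, 5.43 and 5.82 in CMP, against 2.18, 2.22 and 4.83 in MPPFL+ (difference 2.53, adjusted p = 0.000547). Cybb, the catalytic subunit of the phagocyte oxidase, did not share the high replicate 3: it was at 6.32, 7.10 and 6.86 in CMP, against 2.45, 2.202 and 2.69 in MPPFL+, a rise of at least 19.9-fold (adjusted p = 1.4e-10). Padi4, which citrullinates histones in neutrophils, fell to 6.33, 5.43 and 5.77 in CMP, against 9.53, 9.73 and 9.74 in MPPFL+ (difference -3.83, SE 0.29, adjusted p = 1.63e-08).

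The count of risers in this list was 8 without MPPFL+ replicate 3, 2 without MPPFL+ replicate 1 or 2, 9 without CMP replicate 2 and 7 without CMP replicate 3. Ngp missed without MPPFL+ replicate 1 (adjusted p = 0.0678) or 2 (0.0626). Camp missed without CMP replicate 1 (0.102) or MPPFL+ replicate 1 (0.132) or 2 (0.14), and S100a8 without the same arrays (0.195, 0.218 and 0.213). With the Gapdh term 3 rose, and Camp (0.0566) and S100a8 (0.105) missed. With the spike-in block, 1 rose and 1 fell, which were Cybb and Padi4.

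**Figure D4:**
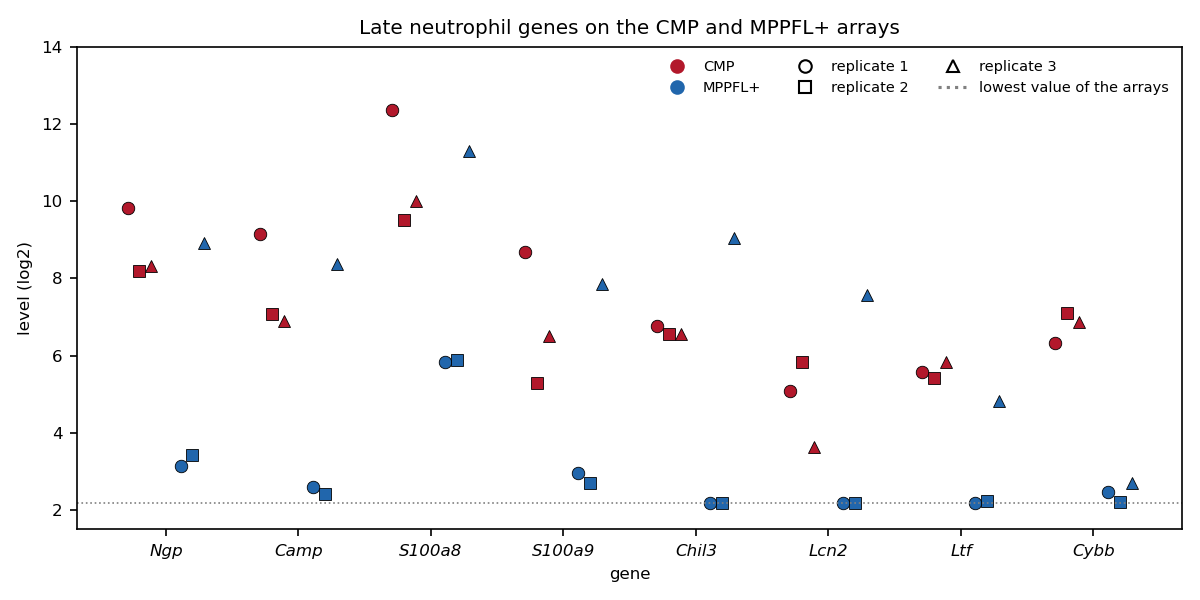
Log2 level (y axis) of 8 late neutrophil genes (x axis) on the CMP arrays (red, left of each pair) and the MPPFL+ arrays (blue, right), with 1 symbol shape per replicate and a dotted line at the lowest value of the arrays. For Ngp, Camp and S100a8 the MPPFL+ replicate 3 triangle lies at 8.91, 8.37 and 11.29, among the CMP arrays, while for Cybb all MPPFL+ arrays lie at or below 2.69.

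Monocyte and macrophage genes rose in part. Of 20 measured monocyte, macrophage and dendritic cell genes, 7 rose (35%, against 5.39% of all genes) and 4 fell (20%, against 18.7%). The other 9 did not pass (list median 0.22). F13a1, the coagulation factor XIII A chain made by monocytes and megakaryocytes, was at 12.98, 12.12 and 12.34 in CMP, against 5.77, 5.34 and 3.71 in MPPFL+ (difference 7.54, SE 0.44, adjusted p = 2.85e-10). Ly86, a partner of the receptor RP105, was at 11.94, 10.92 and 10.66 in CMP, against 3.71, 4.57 and 5.09 in MPPFL+ (difference 6.71, SE 0.36, adjusted p = 1.04e-10). The chemokine receptors of monocytes moved with them. Cx3cr1 was at 10.03, 9.73 and 9.12 in CMP, against 5.20, 4.51 and 4.94 in MPPFL+ (difference 4.74, adjusted p = 1.79e-09), and Ccr2 at 8.75, 8.41 and 7.59 in CMP, against 4.21, 4.29 and 4.25 in MPPFL+ (difference 3.999, adjusted p = 2.21e-09).

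Adgre1, a macrophage surface protein, rose to 6.85, 5.9998 and 5.51 in CMP, against 3.81, 3.99 and 3.499 in MPPFL+ (difference 2.35, adjusted p = 1.03e-06). Cd14, the lipopolysaccharide coreceptor, also passed, with a difference of 0.40 within 1 log2 unit of the floor (adjusted p = 0.000551). The macrophage lysosomal gene Cd68 and the complement gene C1qc did not pass (adjusted p = 0.51 and 0.848). The members that fell were C1qa, C1qb, Hmox1 and Vcam1. C1qb, of complement C1q, was at 3.36, 3.32 and 3.38 in CMP, against 6.43, 5.67 and 4.87 in MPPFL+ (difference -2.30, adjusted p = 0.00332). C1qa was near the floor in CMP, against 2.61, 4.19 and 5.16 in MPPFL+ (adjusted p = 0.00984; 0.0708 without MPPFL+ replicate 3), and Hmox1, heme oxygenase, likewise (adjusted p = 0.00305). Vcam1, an adhesion protein that macrophages and stroma carry, was at 4.54, 6.65 and 4.80 in CMP, against 8.85, 7.60 and 8.70 in MPPFL+ (difference -3.05, adjusted p = 0.0173), and missed without CMP replicate 1 (0.0683) or 3 (0.0514) or MPPFL+ replicate 1 (0.0646) or 3 (0.0529). Without MPPFL+ replicate 3, 2 members fell. In the blocked fit, 6 rose and 0 fell. Whether macrophages in the MPPFL+ sort had a part in these values was not tested.

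MHC class II genes, which present antigen, did not rise in any case. Of 9 measured, 0 rose and 4 fell (44.4%, against 18.7% of all genes), 1 of them with the spike-in block. The list median was -1.04. Of the 9097 genes at or above the median mean, 3215 fell when fitted alone. Cd74, the invariant chain, was at 7.67, 6.08 and 5.12 in CMP, against 9.52, 9.39 and 9.15 in MPPFL+ (difference -3.06, SE 0.57, adjusted p = 0.000548). H2-Ob, a subunit that restrains peptide loading, was at 10.01, 10.50 and 10.37 in CMP, against 12.79, 12.66 and 12.31 in MPPFL+ (difference -2.29, adjusted p = 3.03e-06), and passed with the spike-in block too. H2-DMa differed by -1.04 (adjusted p = 0.00735). H2-Eb1 differed by -1.55 (adjusted p = 0.0411) and missed when any array but MPPFL+ replicate 3 was left out (0.0536 to 0.215), after quantile normalization (0.12) or with the Gapdh term (0.118).

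Receptors for cytokines moved in both directions. Of 21 measured, 4 rose (19.0%, against 5.39% of all genes), 7 fell (33.3%, against 18.7%) and 10 did not pass (median -0.01). The fallen share is also to be read against the 9097 genes at or above the median mean, of which 3215 fell when fitted alone. Csf1r, the M-CSF receptor of macrophages, was at 13.90, 12.33 and 12.37 in CMP, against 9.67, 10.27 and 9.41 in MPPFL+ (difference 3.08, SE 0.41, adjusted p = 1.69e-05). Both chains for interleukin 6 rose, Il6ra by 2.09 (adjusted p = 0.00431) and the signalling chain Il6st by 1.95 (adjusted p = 1.83e-05). Il6st was at 9.79, 10.23 and 9.78 in CMP, against 8.16, 8.03 and 7.75 in MPPFL+. The fourth was Epor, above.

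Csf3r, the G-CSF receptor of neutrophils, fell to 9.31, 9.40 and 10.04 in CMP, against 11.21, 11.06 and 11.44 in MPPFL+ (difference -1.65, SE 0.21, adjusted p = 7.68e-06). Il1r1, the interleukin 1 receptor, fell to 6.40, 8.41 and 8.03 in CMP, against 10.69, 10.78 and 10.51 in MPPFL+ (difference -3.04, adjusted p = 2.83e-06). Tgfbr2, a TGF-beta receptor, differed by -1.83 (SE 0.17, adjusted p = 2.01e-07) and Il4ra by -1.68 (adjusted p = 0.00145). Kit and Flt3 fell as given above, and Il10rb by 0.67 on the log2 scale (adjusted p = 0.00875; 0.0536 without CMP replicate 1 and 0.0652 after quantile normalization), though its probe sets averaged a difference of 0.18.

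The receptors for GM-CSF and interleukin 3 did not pass. Csf2rb, their shared chain, was at 10.48, 11.10 and 11.23 in CMP, against 10.43, 10.21 and 10.25 in MPPFL+, with all CMP arrays above the MPPFL+ arrays (difference 0.64, SE 0.23, adjusted p = 0.0535; 0.00564 after quantile normalization and 0.0123 without CMP replicate 1). Csf2ra, Csf2rb2, Il3ra and Ifngr1 had differences of -0.50, 0.29, 0.09 and 0.24 (adjusted p = 0.378, 0.775, 1 and 0.889). Il10ra was at 5.81, 6.51 and 6.49 in CMP, against 8.28, 8.34 and 5.47 in MPPFL+, and passed only without MPPFL+ replicate 3 (adjusted p = 0.169 with it and 0.000868 without). Il5ra, Il9r, Il13ra1 and Ifngr2 lay within 1 log2 unit of the floor on all 6 arrays. Under the random block of spike-in clusters, 1 receptor rose (Csf1r) and 3 fell (Csf3r, Il1r1 and Tgfbr2).

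More than 50% of the stem cell genes fell. Of 27 measured stem cell and early progenitor genes, 15 fell (55.6%, against 18.7% of all genes) and 3 rose (11.1%, against 5.39%). The other 9 did not pass (list median -1.29). Among the 9097 genes at or above the median mean, 3215 fell when fitted alone. Hlf, a factor of stem cell maintenance, was at 7.57, 8.17 and 8.42 in CMP, against 13.53, 13.53 and 12.73 in MPPFL+ (difference -5.21, SE 0.27, adjusted p = 6.99e-11). Mecom, which stem cells need for self-renewal, was at 6.41, 7.44 and 7.47 in CMP, against 11.51, 11.35 and 10.63 in MPPFL+ (difference -4.06, SE 0.26, adjusted p = 1.05e-09). Procr, the protein C receptor, was at 5.81, 5.94 and 5.81 in CMP, against 11.33, 11.35 and 10.37 in MPPFL+ (difference -5.16, adjusted p = 5.17e-08).

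Fgd5, a marker of stem cells and endothelium, was near the floor in CMP, at 2.76, 2.44 and 2.44, against 7.73, 7.71 and 6.86 in MPPFL+, at least 29.6-fold lower (adjusted p = 5.55e-12). Robo4, a guidance receptor on stem cells, was at least 11.2-fold lower (adjusted p = 0.000177). Esam, an adhesion protein of stem cells and endothelium, differed by -1.29 (adjusted p = 0.00839; 0.0545 without MPPFL+ replicate 2 and 0.0607 after quantile normalization). The HOX partner Meis1 and Hoxa9, still high in CMP, differed by -1.68 and -1.29 (adjusted p = 0.000411 and 4.71e-05). Meis1 was at 11.92, 12.24 and 12.41 in CMP, against 14.10, 13.81 and 13.71 in MPPFL+.

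Against the direction of the list, 3 members rose. Slamf1 (CD150) was at 3.94, 6.05 and 4.92 in CMP, against 2.26, 2.38 and 2.22 in MPPFL+, a rise of at least 6.42-fold (adjusted p = 7.95e-05). Tek (Tie2), the angiopoietin receptor, was at 5.86, 6.72 and 6.82 in CMP, against 4.66, 3.89 and 3.09 in MPPFL+ (difference 2.59, SE 0.26, adjusted p = 5.01e-07). Both were higher still in MPPFL-, at 6.14 ± 0.74 for Slamf1 and 8.36 ± 0.06 for Tek (SD, n = 5). Gata2, described above, was the third. When the spike-in clusters were blocked, 8 members fell and 1 rose (Tek).

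Early lymphoid genes fell or did not pass. Of 30 measured early lymphoid genes, 0 rose, 16 fell (53.3%, against 18.7% of all genes) and 14 did not pass (median -1.01). Near the floor on all 6 arrays were 7 of the 30. When the 9097 genes at or above the median mean were fitted alone, 3215 fell. Ccr9, the chemokine receptor for homing to the thymus, was at 2.64, 2.33 and 2.23 in CMP, against 8.49, 9.57 and 8.69 in MPPFL+, at least 91.4-fold lower (adjusted p = 5.45e-08). Dntt, the polymerase that adds bases at antigen receptor joints, was high in both, at 11.61, 10.47 and 11.45 in CMP, against 13.02, 13.15 and 13.08 in MPPFL+ (difference -1.91, SE 0.23, adjusted p = 6.21e-06). In GMP it was at 2.19 ± 0.02 (SD, n = 3), near the floor.

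Ets1, an ETS factor of lymphocytes, fell to 7.38, 7.12 and 6.63 in CMP, against 11.09, 10.52 and 10.13 in MPPFL+ (difference -3.54, adjusted p = 1.19e-05). Blnk, which acts below the B cell receptor, was at the floor in CMP, against 4.61, 4.23 and 6.14 in MPPFL+, at least 7.06-fold lower (adjusted p = 3.68e-07). Rag1, a subunit of the antigen receptor recombinase, was at 3.02, 2.53 and 2.17 in CMP, against 4.41, 5.21 and 4.59 in MPPFL+ (adjusted p = 0.000884), low on both sides. Satb1, a chromatin organiser of lymphoid cells, was abundant in both, at 11.35, 11.44 and 11.48 in CMP, against 13.34, 13.16 and 13.24 in MPPFL+ (difference -1.82, SE 0.14, adjusted p = 2.28e-08). The B cell factors Ebf1 and Pax5 were at the floor in both. With the spike-in block, 4 fell and 0 rose.

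Homing and adhesion genes fell in 6 of 17 cases (35.3%, against 18.7% of all genes) and rose in 1 (5.88%, against 5.39%). They did not pass in 10 (list median -0.56). The share that fell is also to be read against the 9097 genes at or above the median mean, of which 3215 fell when fitted alone. Cd27, a TNF-family receptor of progenitors with lymphoid potential, was at 8.87, 8.41 and 9.16 in CMP, against 10.66, 11.01 and 10.84 in MPPFL+ (difference -2.02, adjusted p = 3.9e-06). Cd44, the hyaluronan receptor, was at 11.34, 12.21 and 12.30 in CMP, against 13.55, 13.59 and 13.57 in MPPFL+ (difference -1.62, adjusted p = 0.000132). Both passed with the spike-in block, as did Ccr9, so that 3 members fell and 0 rose in it. Cxcr4, which holds cells in the marrow, varied within the groups, at 11.47, 10.38 and 9.32 in CMP, against 11.09, 13.49 and 12.61 in MPPFL+ (difference -2.01, adjusted p = 0.0172), and missed without CMP replicate 3 (0.0881), MPPFL+ replicate 2 (0.114) or MPPFL+ replicate 3 (0.0528).

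Cd47, the signal that protects cells from phagocytosis, differed by -0.70 (adjusted p = 0.0284), with 1 of 4 other probe sets in the opposite direction, and missed without CMP replicate 1 (0.189) or MPPFL+ replicate 1 (0.0983) or 2 (0.0639) and after quantile normalization (0.0656). With its probe sets averaged the difference was 0.13 (0.541). Itga4, the alpha 4 integrin, was the member that rose (difference 0.68, adjusted p = 0.029), and its call was lost without CMP replicate 3 (0.172) or MPPFL+ replicate 2 (0.097) or 3 (0.118). Without MPPFL+ replicate 2, 3 members fell.

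Interferon response genes fell or did not pass. Of 17 measured, 10 fell (58.8%, against 18.7% of all genes), 0 rose and 7 did not pass (median -1.04). Fitted alone, 3215 of the 9097 genes at or above the median mean fell. Ifit1, an antiviral RNA-binding protein, was at 3.42, 2.64 and 3.53 in CMP, against 7.10, 7.39 and 7.71 in MPPFL+ (difference -4.21, SE 0.52, adjusted p = 6.37e-06). Oasl2, of the oligoadenylate synthetase family, was at 5.86, 7.48 and 8.22 in CMP, against 10.49, 10.46 and 10.17 in MPPFL+ (difference -3.19, SE 0.50, adjusted p = 0.000106). Ifitm1, a membrane protein that blocks virus entry, was at 12.45, 10.96 and 11.05 in CMP, against 13.59, 13.59 and 13.54 in MPPFL+ (difference -2.09, adjusted p = 0.00011). For these 3 genes the groups did not overlap, and the CMP arrays spread more widely than the MPPFL+ arrays.

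Usp18, the brake on interferon signalling, and Xaf1 differed by -1.97 and -1.35 (adjusted p = 0.00809 and 0.00254). Irf7, which amplifies the response, differed by -1.28 (adjusted p = 0.022) and missed without CMP replicate 1 (0.0635) or 3 (0.0537) or MPPFL+ replicate 1 (0.0885) or 2 (0.0764) and after quantile normalization (0.0944). After quantile normalization 6 members fell, and with the spike-in block 1, Ifit1. The promoter of Ifit1 is printed for its 2 copies of the interferon response element core, spelled GAAA, any 2 bases and GAAA, in capitals on the opposite strand (chr19:34640639-34640938, plus strand, GRCm38.p6, RefSeq).
Ifit1: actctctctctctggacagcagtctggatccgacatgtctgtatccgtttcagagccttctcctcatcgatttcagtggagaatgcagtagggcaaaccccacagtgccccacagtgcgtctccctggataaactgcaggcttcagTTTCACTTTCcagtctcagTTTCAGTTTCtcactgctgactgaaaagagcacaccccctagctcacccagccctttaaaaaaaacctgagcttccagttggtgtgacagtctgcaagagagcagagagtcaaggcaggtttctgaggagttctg

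Of the 10 interferon genes that fell, 9 had a promoter in the table, and 3 (33.3%) held this motif, namely Ifih1, Ifit1 and Ifitm3, against 3.63% of tested genes with a promoter. The list was assembled as interferon response genes, and members that did not fall were not counted. This share is therefore a description and does not bear on the fall.

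Cell cycle genes moved in both directions. Of 36 measured, 4 rose (11.1%, against 5.39% of all genes), 6 fell (16.7%, against 18.7%) and 26 did not pass (median -0.17). The G1 to S genes E2f1 and Ccne1 rose. E2f1, a factor that opens S phase, was at 9.997, 10.20 and 9.40 in CMP, against 8.31, 7.57 and 7.39 in MPPFL+ (difference 2.11, adjusted p = 0.000196), and Ccne1 (cyclin E1) at 10.96, 10.05 and 9.58 in CMP, against 8.48, 8.48 and 7.89 in MPPFL+ (difference 1.91, adjusted p = 0.000109). Ccnb2, a mitotic cyclin, fell to 10.97, 11.28 and 11.97 in CMP, against 12.95, 12.54 and 12.97 in MPPFL+ (difference -1.42, adjusted p = 0.000457). Cdk2 differed by -1.23 (adjusted p = 0.00118) and the helicase subunit Mcm6 by -0.81 (adjusted p = 0.000662).

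The inhibitor Cdkn1a (p21) rose by 1.52 (adjusted p = 0.04) and missed without CMP replicate 1 (0.127) or 2 (0.0551) or MPPFL+ replicate 1 (0.154) or 2 (0.142). Rrm1, of ribonucleotide reductase, rose by 0.65 (adjusted p = 0.03), with 1 of its 2 other probe sets in the opposite direction, and missed without CMP replicate 2 (0.1) or 3 (0.13) or MPPFL+ replicate 2 (0.0583) or 3 (0.171) or with its probe sets averaged (0.503). Without CMP replicate 2 or MPPFL+ replicate 2, 2 members rose. In the blocked fit, 0 members rose and 0 fell.

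Of 19 ribosome building genes, 4 rose and 4 fell (21.1% each, against 5.39% and 18.7% of all genes; median -0.07). Nop58, a core protein of the particles that methylate ribosomal RNA, was at 10.36, 11.74 and 11.69 in CMP, against 9.59, 9.12 and 10.11 in MPPFL+ (difference 1.66, adjusted p = 0.000807). Npm1, nucleophosmin, was at 13.86, 14.61 and 14.57 in CMP, against 15.01, 14.94 and 15.12 in MPPFL+ (difference -0.67, adjusted p = 0.00134). With the probe sets of Npm1 averaged, the difference was -0.09 and its call was lost (0.865). The polymerase I subunits Polr1a and Polr1b and their factor Rrn3 differed by -1.01, -1.17 and -0.66 (adjusted p = 0.0105, 0.024 and 0.0205), and none of the 3 passed without CMP replicate 1 (0.0659, 0.167 and 0.109). Polr1b also missed without MPPFL+ replicate 3 (0.11), and Rrn3 without MPPFL+ replicate 1 (0.0697) or 2 (0.0531). Polr1a missed with its probe sets averaged (0.374), and Polr1b and Rrn3 after quantile normalization (0.062 and 0.068) and with the Gapdh term (0.0773 and 0.0688). Rrp12 differed by 0.93 (adjusted p = 0.0344) and missed without CMP replicate 2 (0.193) or MPPFL+ replicate 1 (0.189) or 2 (0.133) or with the Gapdh term (0.0859). Without CMP replicate 1, 1 member fell, after quantile normalization 2 fell, and without MPPFL+ replicate 1 or 2, 2 rose. With the Gapdh term 2 rose and 2 fell. With the spike-in clusters blocked, 0 passed.

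Cholesterol synthesis genes fell in 3 of 17 cases (17.6%, against 18.7% of all genes) and rose in 0 (median -0.20). Insig1, which holds back the sterol-sensing machinery, was at 8.49, 8.09 and 7.92 in CMP, against 9.86, 10.05 and 10.19 in MPPFL+ (difference -1.87, SE 0.26, adjusted p = 3.26e-05). Srebf2, the factor that switches the pathway on, differed by -1.16 (adjusted p = 0.0223; 0.1 without MPPFL+ replicate 1 and 0.118 without replicate 2), and the enzyme Msmo1 by -1.47 (adjusted p = 0.0279; 0.168 without CMP replicate 1 and 0.118 without MPPFL+ replicate 3). After quantile normalization 1 member fell, with Srebf2 at an adjusted p of 0.12 and Msmo1 at 0.0569. Srebf2 also missed with the Gapdh term (0.0758), and Msmo1 with its probe sets averaged (0.24). Under the random block of spike-in clusters, 0 passed.

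Immediate early and stress genes, which also respond to cell handling, moved in both directions: 4 of 24 rose (16.7%, against 5.39% of all genes), 3 fell (12.5%, against 18.7%) and 17 did not pass (median 0.06). The inducible heat shock genes stood out. Hspa1a was at 10.19, 8.43 and 9.90 in CMP, against 2.76, 2.75 and 2.17 in MPPFL+, a rise of at least 123.4-fold with a wide error (SE 1.41 log2, adjusted p = 0.00115). Hspa1b was at 13.56, 11.81 and 14.07 in CMP, against 8.52, 8.36 and 5.08 in MPPFL+ (difference 5.83, SE 1.71, adjusted p = 0.0167; 0.0846 without MPPFL+ replicate 3). The CMP arrays lay above the MPPFL+ arrays for both, with a spread of more than 1 log2 unit within CMP. DN3 replicate 3, which shares a spike-in cluster with CMP replicates 2 and 3, was at 10.39 for Hspa1a and 13.90 for Hspa1b. The other DN3 arrays were at 2.71 and 2.75 for Hspa1a, and at 6.04 and 7.22 for Hspa1b. The DN1 and DN2 arrays, in a cluster of their own, averaged 13.28 and 11.96 for Hspa1a. Whether processing had a part in these levels was not tested. Without CMP replicate 3, or without MPPFL+ replicate 2 or 3, 2 members of the list rose, as with the Gapdh term.

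Klf2 and Klf6 rose by 2.51 and 1.49 (adjusted p = 0.0406 for both). Klf2 missed without CMP replicate 2 (0.0914) or 3 (0.0997) or MPPFL+ replicate 1 (0.0791) or 2 (0.18), and Klf6 when any array but MPPFL+ replicate 1 was left out (0.0638 to 0.137). With the Gapdh term neither Klf2 (0.128) nor Klf6 (0.0807) passed, and Klf6 missed with its probe sets averaged (0.401). The constitutive chaperones Hspa8 and Hsp90aa1 differed by -0.39 and -0.37 (adjusted p = 0.00637 and 0.0251), close to the typical difference of -0.35. With probe sets averaged, Hspa8 differed by -0.11 and its call was lost (0.929). Of the other Hsp90aa1 probe sets, 1 of 4 ran the opposite way, the mean difference over its probe sets was 0.21, and its call was lost without CMP replicate 1 (0.0927) or MPPFL+ replicate 3 (0.173), after quantile normalization (0.106) or with the Gapdh term (0.0579). Socs3, the brake on STAT3 signalling, fell to 8.62, 5.48 and 6.91 in CMP, against 9.06, 9.17 and 9.35 in MPPFL+ (difference -2.19, adjusted p = 0.0153; 0.089 without CMP replicate 2). When the spike-in clusters were blocked, 0 passed.

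The DNA methylation genes, which write, keep or remove methyl marks, moved in both directions. Of 8 measured, 2 rose, 2 fell and 4 did not pass (25.0% each way, against 5.39% and 18.7% of all genes; median 0.08). Tet2, which oxidises methylcytosine, was at 10.29, 9.84 and 10.43 in CMP, against 9.01, 8.47 and 9.18 in MPPFL+ (difference 1.30, SE 0.26, adjusted p = 0.000839). Tet3 differed by 0.70 from near the floor (adjusted p = 0.000259). The enzyme for new methylation Dnmt3b was at 9.85, 9.18 and 9.44 in CMP, against 10.90, 11.70 and 12.21 in MPPFL+ (difference -2.11, SE 0.33, adjusted p = 0.000105).

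Dnmt3a, the other such enzyme, was at 8.85, 8.81 and 8.73 in CMP, against 10.41, 10.52 and 10.16 in MPPFL+ (difference -1.56, adjusted p = 0.00036). Its direction rests on the probe set, since 3 of 4 other probe sets moved the other way and the mean over its probe sets differed by 0.53 (adjusted p = 0.0459). Dnmt1, the maintenance enzyme, and its partner Uhrf1 did not pass (differences 0.16 and 0.15, adjusted p = 0.911 and 0.964). Tet1 differed by -1.35 (adjusted p = 0.0624), passed without CMP replicate 2 (0.0184) or 3 (0.0403), and had 2 of 3 other probe sets in the opposite direction. Dnmt3l was at the floor on all 6 arrays. With the spike-in block, 0 passed.

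Most markers of other marrow cells, outside the neutrophil and macrophage lists above, were low. Of 7 measured T and NK cell genes, 6 lay near the floor on all 6 arrays and 0 passed, with list means from 2.32 to 2.46 in CMP and from 2.31 to 2.32 in MPPFL+. Of 9 stroma and endothelium genes, 7 lay near the floor. Pecam1 did not, with means of 6.20 in CMP and 6.05 in MPPFL+, and it did not pass. The exception that fell was Emcn, endomucin, which stem cells also carry (2.49, 2.91 and 4.49 in CMP, against 6.40, 7.20 and 6.17 in MPPFL+, adjusted p = 1.71e-05). Of 6 mature B and plasma cell genes, Sdc1 (CD138) was the member that passed. It was at 5.35, 6.001 and 5.38 in CMP, against 10.24, 10.28 and 9.66 in MPPFL+ (difference -4.48, SE 0.29, adjusted p = 1.28e-09), while the plasma cell gene Jchain was at the floor on all 6 arrays. With the spike-in block, 1 B and plasma cell gene fell, and 0 genes of the other two lists passed.

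Several of the largest changes belong to no list. Ddx4, an RNA helicase of germ cells, had the largest fall of the genes named, to 2.23, 3.497 and 3.77 in CMP, against 11.65, 11.77 and 10.79 in MPPFL+ (difference -8.23, SE 0.43, adjusted p = 6.67e-11). It was at 10.75 ± 0.33 in CLP and 2.18 ± 0.01 in GMP (SD, n = 3 each). P2ry10, a receptor for lysophosphatidylserine, was at 3.64, 4.49 and 3.84 in CMP, against 10.74, 10.33 and 10.17 in MPPFL+ (difference -6.42, adjusted p = 4.74e-11). Mn1, a transcriptional coregulator known from leukaemia, was at 5.44, 5.13 and 6.59 in CMP, against 11.92, 12.14 and 11.37 in MPPFL+ (difference -6.09, adjusted p = 8.47e-10).

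Cyp7b1, an oxysterol hydroxylase, was at 2.17, 3.47 and 2.18 in CMP, against 8.85, 8.58 and 8.17 in MPPFL+ (difference -5.93, adjusted p = 4.93e-10). Vldlr, a lipoprotein receptor, was at 8.82, 5.90 and 6.68 in CMP, against 12.07, 12.30 and 13.31 in MPPFL+ (difference -5.43, adjusted p = 2.8e-06), and all 5 other probe sets moved with it. Hnf4a, a nuclear receptor best known from liver, was at 5.67, 5.57 and 5.67 in CMP, against 10.83, 11.32 and 10.95 in MPPFL+ (difference -5.40, SE 0.28, adjusted p = 6.02e-11). These groups were separated by more than 3 log2 units in each case.

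Sema3d, a guidance protein, was at the floor on the 3 CMP arrays, against 8.38, 7.93 and 7.15 in MPPFL+, at least 50.1-fold lower (adjusted p = 1.53e-09). Col4a2, a basement membrane collagen, was at least 38.1-fold lower, Klhl4 at least 66.0-fold lower and Wfdc18 at least 36.4-fold lower in CMP, all near the floor there. Mamdc2 and Pglyrp2, a peptidoglycan-cleaving enzyme, differed by -5.34 and -5.22 (adjusted p = 2.34e-07 and 2.9e-10). Among the rises, St8sia6, a sialyltransferase, was at 7.95, 8.82 and 9.27 in CMP, against 2.26 on each MPPFL+ array, at least 85.7-fold higher (adjusted p = 5.07e-08). With the spike-in block, which cannot tell processing and population apart here, each gene of the last 3 paragraphs passed.

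The same genes in the neighbouring populations place these changes. CMP was higher than GMP at 7.63% of all genes and lower at 13.8% (21.4% in all). It was higher than CLP at 5.69% and lower at 17.5% (23.2% in all), and higher than MPPFL- at 10.8% and lower at 18.7% (29.5% in all). These comparisons share the CMP arrays with the main comparison, so their counts are not independent of it. Platelet genes were higher in CMP than in all 3 others: 17 of 24 against GMP, 19 against CLP and 13 against MPPFL-. Gata1 had its highest mean in CMP, 10.98 against 8.52 ± 0.90 in MPPFL- (SD, n = 5), a difference of 2.46 (SE 0.36, adjusted p = 2.57e-05). Pf4 likewise was at 11.19 ± 0.47 in MPPFL-, 2.34 below CMP (SE 0.32, adjusted p = 1.28e-05), and Vwf at 7.84 ± 0.83, 2.31 below CMP (adjusted p = 0.000527).

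Several red cell and megakaryocyte genes were above the floor in MPPFL- as well. Klf1 was at 4.43 ± 0.71 in MPPFL- and Cavin2 at 7.68 ± 0.82 (SD, n = 5), against the floor for Cavin2 in MPPFL+. Gata2 did not differ past the threshold between CMP and MPPFL- (difference 0.04, SE 0.31, adjusted p = 1). Ermap did, being near the floor in MPPFL- (adjusted p = 1.29e-14). The mast cell gene Cpa3 did not differ past the threshold between CMP and MPPFL- (difference 0.56, SE 0.41, adjusted p = 0.365). Nor did it between CMP and GMP (difference 0.91, SE 0.46, adjusted p = 0.174), and its highest mean, 13.24, was in DN2. Of the 18 mast cell, basophil and eosinophil genes, 2 were higher in CMP than in GMP and 6 lower.

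Against GMP, the primary granule genes ran the other way, since 15 of 18 were lower in CMP and 0 were higher. Elane was at 13.75 ± 0.16 and Ms4a3 at 14.10 ± 0.06 in GMP (SD, n = 3), and CMP lay 3.17 and 3.49 below (adjusted p = 0.00501 and 8.91e-05). Irf8 and Csf1r did not differ past the threshold between CMP and GMP (differences 0.19 and -0.30, SE 0.37 and 0.41, adjusted p = 0.938 and 0.781). Cx3cr1 was higher in CMP than in GMP by 1.66 (SE 0.31, adjusted p = 0.000586). In CMP, 18 of 27 stem cell genes and 11 of 30 lymphoid genes were higher than in GMP. Among them Hlf was higher by 2.12 (adjusted p = 1.14e-05), Flt3 by 5.87 (adjusted p = 1.87e-09), and Dntt was near the floor in GMP (adjusted p = 3.29e-16).

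Against CLP, 21 of 30 lymphoid genes were lower in CMP and 1 was higher. Dntt was at 14.06 ± 0.07 in CLP (SD, n = 3), 2.88 above CMP (SE 0.23, adjusted p = 2.49e-08). Some monocyte genes did not differ past the threshold between CMP and CLP: Ly86 was at 11.58 ± 0.25 in CLP (difference -0.41, SE 0.36, adjusted p = 0.52), and Csf1r at 12.22 ± 0.30 (difference 0.64, SE 0.41, adjusted p = 0.302). Irf8 was higher in CLP, 14.56 ± 0.10, by 1.18 (adjusted p = 0.0245). Interferon genes were lower in CMP than in MPPFL- for 9 of 17 and higher for 0, and lower than in CLP for 7 and higher for 3. Against GMP they were higher in CMP for 8 and lower for 0.

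**Figure D5:**
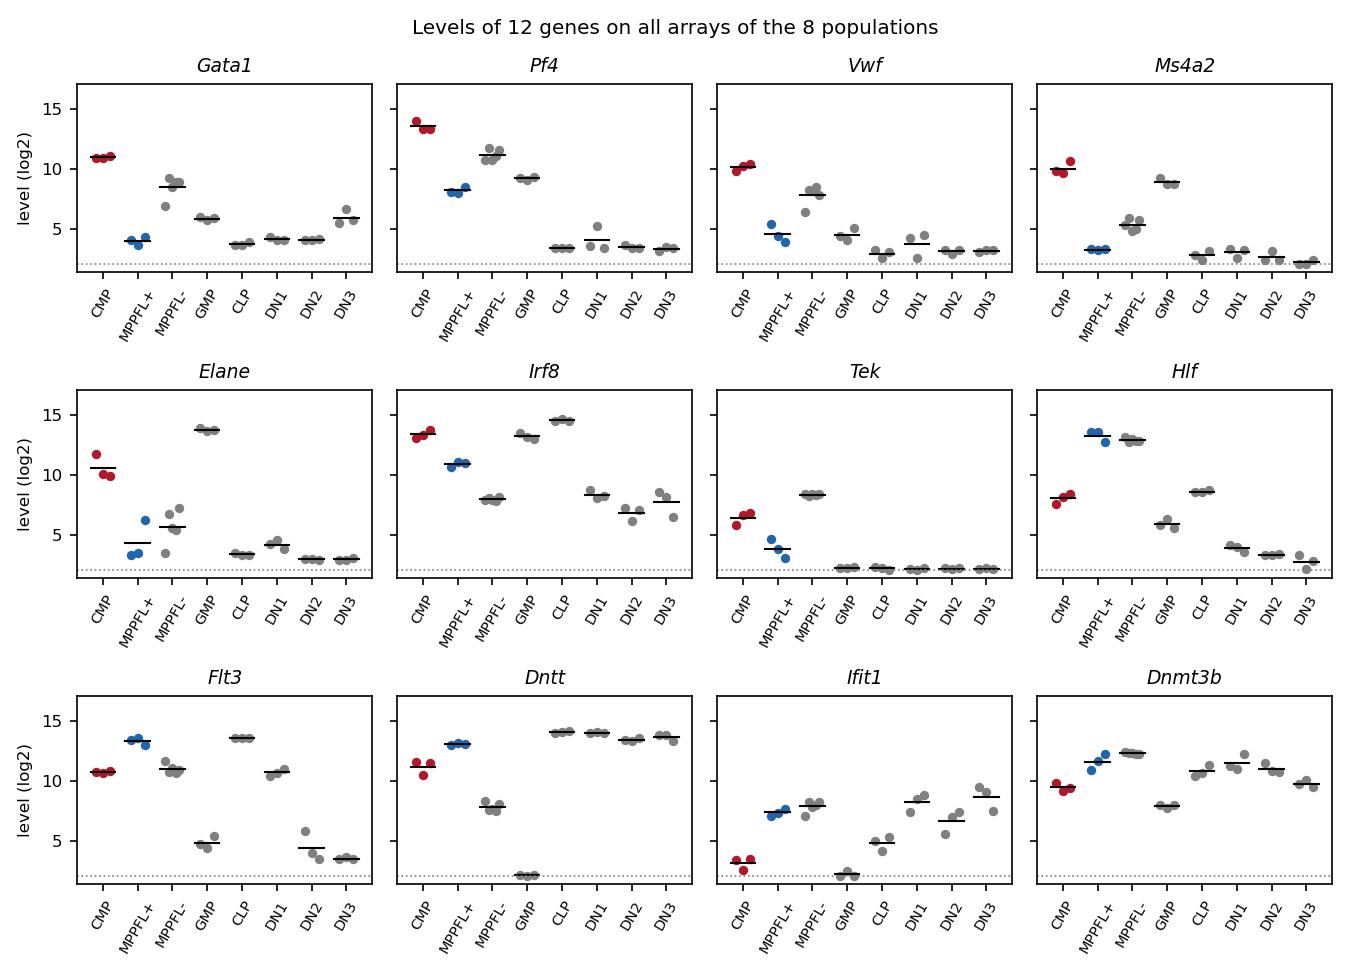
Log2 level (y axis) of 12 genes on all 26 arrays of the 8 populations (x axis, CMP in red, MPPFL+ in blue, the others in grey), with bars at the means and a dotted line at the lowest value of the arrays. Gata1, Pf4, Vwf and Ms4a2 have their highest mean in CMP, Elane is higher in GMP at 13.75 and Dntt in CLP at 14.06.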

How the data were processed

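Total RNA of 8 sorted blood progenitor populations was hybridised to 26 Affymetrix mouse arrays, per the labels' protocols. The values are log2 signals as deposited by the authors, and the summarization and normalization behind them are not given in the sources used here. Depth has no meaning on arrays, and the number of arrays limits the precision. Of 45101 probe sets, 34958 carry 1 gene symbol in the platform annotation, 932 carry several and 9211 none. For each of 18194 genes, 1 probe set was used, the one whose average over the 26 arrays was highest among those of 1 gene.

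All 26 arrays were fitted in 1 model with the population as the term (limma 3.58.1, R 4.3.3, statmod 1.5.0, 18 residual degrees of freedom), with empirical Bayes variances, two-sided tests and Benjamini-Hochberg adjustment over all genes at 0.05. CMP minus MPPFL+ was the main contrast, and CMP minus GMP, CLP and MPPFL- were the others. On simulated data the fit recovered 85 of 100 genes changed by 2 log2 units and 51 of 100 changed by 1, with 6 calls among unchanged genes of 18194. In the data CMP and MPPFL+ share no spike-in cluster, so these counts do not give the number of false calls in this contrast.

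The comparison and the 22 gene lists (399 of 435 genes measured) were chosen with earlier results of these data known. The text names the 15 largest rises and falls that passed without overlap and with a higher mean of at least 5.31, up to 6 members a list with the largest change among those that passed, every member of the lists of transcription factors, cytokine receptors and DNA methylation genes, list members that went against their list, and Gata1, Mpo, Flt3, Kit, Cd34, Ly6a (no gene of that name was measured), Fcgr2b, Fcgr3, Il7r and Il2ra. Other genes were named after their values were seen, among them Itga2b, Treml1, Clec1b, Thbs1, Alas2, Hba-a1, Urod, Alad, Sptb, Epb42, Ank1, Rhag, Add2, Gypc, Adgre1, Cd14, Cd68, C1qc, Fcer1a, Prg2, Epx, Prtn3, S100a9, Chil3, Lcn2, Meis1, Hoxa9, Satb1, Ebf1, Pax5 and Jchain. Promoters are from RefSeq, build GRCm38.p6, searched on both strands.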

Additional observations from a re-analysis of the deposited data

Results flagged for a closer look

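Of 24 gene levels examined in the 5 MPPFL- arrays, 3 had an array far from the other 4. The rule flags about 1 in 20 where values spread normally. The 24 genes were picked for display and share the same arrays, so their count cannot be set against that rate. Cpa3 was at 9.65 on MPPFL- replicate 1, and between 10.96 and 11.09 on the others. Ccr9 was at 3.09 on MPPFL- replicate 4, and between 2.33 and 2.53 on the others, all near the floor. Mecom was at 11.49 on MPPFL- replicate 5, and between 11.75 and 11.84 on the others.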

How the results depend on the processing

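The 4378 genes that passed between CMP and MPPFL+ (981 higher, 3397 lower) became 528 (138 higher, 390 lower) with the spike-in clusters as a random block, and the calls against GMP, CLP and MPPFL- became 630, 598 and 757. With only the 6 arrays of CMP and MPPFL+, 1139 passed (242 higher, 897 lower). The deviations of the arrays from their group means, over 9097 genes, were compared between CMP and MPPFL+. Same-numbered arrays had correlations of -0.12, -0.01 and -0.05, and arrays of other numbers -0.12 to 0.20. With 3 arrays a group, whose deviations are tied to each other, this cannot decide whether the numbers pair the arrays. A fit of the 6 arrays with a replicate block, which has 2 residual degrees of freedom, called 1 gene (1 higher, 0 lower). With every probe set tested, 7233 passed, 2233 of them higher. Leaving out 1 array gave 3541 to 5234 genes (771 to 1887 higher, 2770 to 3347 lower), and 3304 to 5183 against GMP, 3463 to 5084 against CLP and 4899 to 6201 against MPPFL-. With the Gapdh 3' minus 5' signal as a term, an alternative chosen after seeing the data, 3935 passed (896 higher, 3039 lower). Of the named genes, 14 lost their call there, 14 after quantile normalization and 12 with probe sets averaged, as given beside them. With only the 6 arrays 75 lost their call and 1 gained one. With the spike-in clusters as a random block 84 lost it. The losses in these fits are not all given beside the genes. With probe sets averaged by gene, Cd47 (0.13), Dnmt3a (0.53), Hsp90aa1 (0.21), Il10rb (0.18) and Selp (0.23) changed direction. The cause of these changes was not tested.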
